A study of Homo sapiens with 24 samples.

Results

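Wide open domains were places on the autosomes at which FAIRE-seq peaks reached 1500 bp or more. FAIRE-seq, which stands for formaldehyde-assisted isolation of regulatory elements with sequencing, recovers DNA that is free of nucleosomes after crosslinking, shearing and phenol extraction. All peaks of 1500 bp or more in the 24 peak lists were merged where they overlapped by at least 1 bp, and a merged place was kept when at least 2 lists held such a peak. There were 24 such domains among 728448 merged autosomal regions of any width. A further 23 places were that wide in 1 list only and were left out. The domains were thus selected on the peak lengths in all 24 lists, and widths and list counts of the 24 are given as descriptions without a test.

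Most open sites found by FAIRE-seq are short, since a typical promoter or enhancer leaves only a small stretch of DNA without nucleosomes. Longer open stretches are known from clusters of enhancers and from very active promoters. Repeated DNA, such as the satellite arrays around centromeres, is a known source of dense read coverage in assays of this kind, and the hg19 assembly left the centromeres as gaps without sequence.

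LNCaP is an androgen-dependent prostate cancer line that carries the androgen receptor. RES-A is 1 subline obtained from LNCaP by long passage in rising doses of enzalutamide (ENZ), an inhibitor of that receptor, so that the comparison of LNCaP with RES-A rests on 1 selected line. Both were held for 3 days in RPMI with 5% hormone-depleted serum. During these days the medium of RES-A, and not that of LNCaP, contained 10 µM ENZ. The treatments, each of 18 h, were DMSO as the solvent control, the androgen dihydrotestosterone (DHT) at 10 nM, ENZ at 10 µM, and DHT+ENZ, the last being both agents at these doses. Each of the 8 groups had 3 libraries. The study's methods describe the FAIRE libraries as biological triplicates. The labels do not say how the 3 differ. The p-values, all from limma, combine the spread between the tested libraries of a group with the spread at all regions tested. They measure no other variation.

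Depth was read from the lists as the genome-wide background, the lowest expected pileup implied by pileup and fold enrichment, in overlapping fragments at a base. It ran from 0.406 to 5.99 in LNCaP (median 4.12, n = 12) and from 1.81 to 4.48 in RES-A (median 2.76, n = 12). LNCaP ENZ replicate 1 at 0.406 and LNCaP DHT replicate 1 at 0.739 stood apart as the only lists under 1. The lists held between 73254 and 275774 peaks, with a median length between 149 and 252 bp.

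The 24 domains lay on 15 of the 22 autosomes and spanned 54417 bp in all. A single domain covered between 1541 and 3778 bp, with a median of 2036 bp. They are named here by chromosome, with a letter in order along it where a chromosome held several. Of the 329 autosomal peaks of 1500 bp or more, 306 lay at these domains. Such peaks made up 0.00727% of the 4526568 autosomal peaks of all lists. In each of the 24 lists the longest autosomal peak lay at one of the domains.

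The domain was wide in every list at 2 places. The chr6 domain (chr6:58776224-58779851, hg19 as are all positions) had a longest peak between 1756 and 3627 bp over the 24 lists, with a median of 3509.5 bp. The shortest of these, 1756 bp, came from LNCaP ENZ replicate 1, and the next was 3099 bp in LNCaP DHT replicate 1. These are the lists with the lowest background, and the other 22 lists lay between 3309 and 3627 bp. The chr1c domain (chr1:121483802-121485512) was shorter and more uniform, at 1502 to 1692 bp with a median of 1563.5 bp, and its longest peak had a coefficient of variation of 2.17%.

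Another 7 domains were wide in 20 lists or more. The chr11 domain (chr11:10529714-10531773), the chr4 domain (chr4:68264195-68266882) and the chr18 domain (chr18:18518605-18520403) were wide in 23 lists, with median longest peaks of 2003, 1724 and 1633.5 bp. The chr10 domain (chr10:42596719-42600496), the chr16c domain (chr16:46432161-46435574) and the chr5a domain (chr5:9957-11878) were wide in 22 lists. The chr1b domain (chr1:567127-570292) was wide in 21. The longest autosomal peak of all was 3767 bp at chr10 in LNCaP DHT+ENZ replicate 2. The same list held the longest peak of chr16c, at 3392 bp.

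These 9 domains missed a wide peak in 12 of their 216 combinations of domain and list. Of the 12, 6 fell in LNCaP ENZ replicate 1, 5 in LNCaP DHT replicate 1 and 1 in LNCaP DMSO replicate 3, which has a background of 1.95. None fell in RES-A, where all 9 were wide in all 12 lists. In LNCaP 2 domains were wide in all 12 lists.

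The remaining 15 domains were wide less often. Between 11 and 18 lists held a wide peak at chr2a (chr2:92296072-92298227, 18 lists), chr5b (chr5:79946262-79947850, 16 lists), chr16b (chr16:46385914-46388964, 15 lists) and chr1d (chr1:149033890-149035888, 11 lists). The other 11 domains were wide in 2 to 6 lists, 5 of them in exactly 2. A low count of wide lists did not mean that the place lacked a peak: 22 of the 24 domains had some peak in all 24 lists. Of the 576 combinations of domain and list, 302 held a wide peak, 252 held several shorter peaks, 20 held a single shorter peak and 2 held none. Both empty combinations were in lists with a background under 1.

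**Figure D1:**
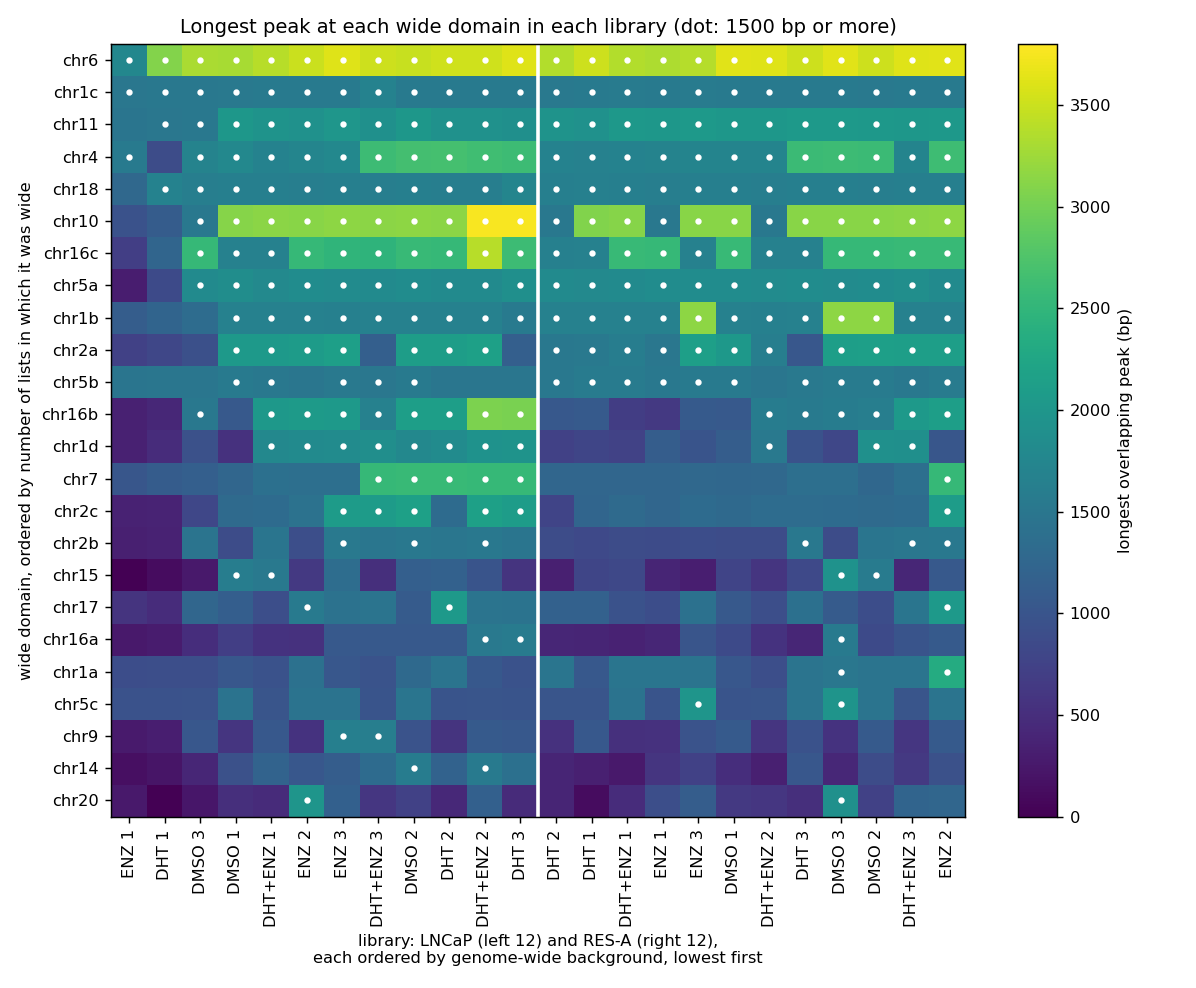
Length in bp of the longest peak that overlaps each of the 24 wide domains (rows, most often wide at the top) in each of the 24 libraries (columns, LNCaP left and RES-A right, each from the lowest to the highest background), with a white dot at 1500 bp or more. The rows chr6 and chr1c carry a dot in all 24 columns, and the 2 leftmost LNCaP columns carry 3 and 4 dots.

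The domains varied over the lists both in their outer edges and in whether their middle was joined. The position of the outer edge had a median SD of 27.8 bp on the left and 30.6 bp on the right. In 10 of the 24 domains the SD of an edge was over 100 bp, with the highest value of 329.9 bp at the left edge of chr20 (chr20:1238845-1240863). In 22 of the 24 domains at least 1 list left a gap between its peaks, 350 such lists in all, and in 272 of these (77.7%) the widest gap was centred within 200 bp of the usual place for that domain. The median widest gap per domain was between 57.5 and 294.5 bp. The chr1c and chr5b domains had no gap in any list, and chr6 and chr18 had one in 1 list each.

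At several domains the longest peak took a few separate values. At chr7 (chr7:61967158-61969728) it was between 1012 and 1397 bp in 18 lists and between 2547 and 2557 bp in the other 6, with no list between. At chr10 it was at most 1528 bp in 6 lists and at least 3087 bp in 18. At chr1b it was 1128 to 1674 bp in 21 lists and 3152 to 3160 bp in RES-A DMSO replicates 2 and 3 and RES-A ENZ replicate 3. All 18 of the shorter lists at chr7 and all 21 at chr1b had a gap, and none of the longer lists did. At chr10, by contrast, all 6 shorter lists and 16 of the 18 longer lists had a gap.

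The 1500 bp limit ran through the middle of some of these distributions. The peaks just outside it were 1495 and 1496 bp at chr5b and 1498 bp at chr2b (chr2:92306665-92308205), and those just inside were 1500 bp at chr11, 1500 bp at chr10 and 1502 bp at chr1c. At chr5b, all 24 lists lay between 1472 and 1583 bp, so that the 16 lists counted as wide and the 8 that were not differed by at most 111 bp.

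Genes near the domains were not analysed here, since the lists are in hg19 and the annotation used here is of another build. Place was described from the lists themselves, by the longest stretch of each chromosome without a called peak. These stretches were 2999896 to 21049956 bp long. Of the 24 domains, 12 lay within 1 Mb of that stretch, 1 lay within 20 kb of the first called peak of its chromosome, and 11 lay elsewhere. By comparison 1.5% of all autosomal peaks lay within 1 Mb of such a stretch. Among 708 merged regions with a peak of at least 1000 bp but under 1500 bp in 2 lists or more the share was 4.10%, and among the 23 places wide in 1 list it was 1 of 23.

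The chr6, chr1c and chr16b domains bordered the stretch directly, with their edge 1 bp from it, and chr2c (chr2:92323998-92326158) ended 7 bp short of it. The chr17 domain (chr17:22259685-22261737) was 1167 bp away and the chr18 domain 7686 bp. The chr2a, chr2b and chr2c domains followed each other within 100 kb, as did chr16b with chr16c and chr1a (chr1:564489-566832) with chr1b, which made 7 domains with another at most 100 kb away. The domain at the chromosome start was chr5a, which began at the first called base of chromosome 5. The domains that lay elsewhere ranged from 2 to 23 wide lists (median 4, n = 11) and those near a stretch from 2 to 24 (median 16.5, n = 12).

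At most of the domains the expected local pileup of the peak caller was high. The local background, as the peak caller's expected pileup at the summit divided by the genome-wide background of the list, had a median of 17.8 over the 306 wide peaks at the domains. It was 1.25 over all autosomal peaks, 2.55 over the 23 wide peaks seen in 1 list only and 2.21 over 4090 peaks of 1000 bp up to the 1500 bp limit elsewhere. The local background was over 10 times the genome-wide one in 14 of the 24 domains by their median over lists. It was so in 7 of the 708 narrower regions. Whether a control library was used is not known here, so this value may include the reads of the domain itself. It is therefore not shown to be separate from the height and width of the peaks.

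Summits were correspondingly high, but the median enrichment over these wide peaks was not. The summit pileup, the number of overlapping fragments, had a median of 242.5 at the wide peaks of the domains against 22 over all autosomal peaks. The median fold enrichment over the local background was 3.91 at the domains, 4.09 over all autosomal peaks, 5.68 at the wide peaks seen in 1 list and 6.76 at the narrower peaks of 1000 bp or more. Thus the domains were wide and tall at a fold enrichment close to that of an ordinary peak in the same lists.

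The pileup had a ceiling in each list. The highest pileup of a list was between 298 and 380, it was an even number in 24 of 24 lists, and in 20 lists it was reached both on the autosomes and on the mitochondrial genome. Of the wide peaks at the domains, 71.9% had a summit over 50% of their list's highest pileup, against 0.0761% of all autosomal peaks. The median summit was at 100% of the highest pileup at chr1c, at 99.9% at chr7, at 94.2% at chr1a and at 93.8% at chr6. It was 6.87% at chr15 (chr15:100466846-100468812) and 8.56% at chr14 (chr14:19432541-19434139), the lowest of the 24. The ratio of local to genome-wide background at such a domain was higher in lists with a lower genome-wide background. At chr1a it was 27.9 in LNCaP DHT replicate 2 (background 5.04, pileup 341) and 159 in LNCaP DHT replicate 1 (background 0.739, pileup 301). The part of this ceiling in the widths was not tested.

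**Figure D2:**
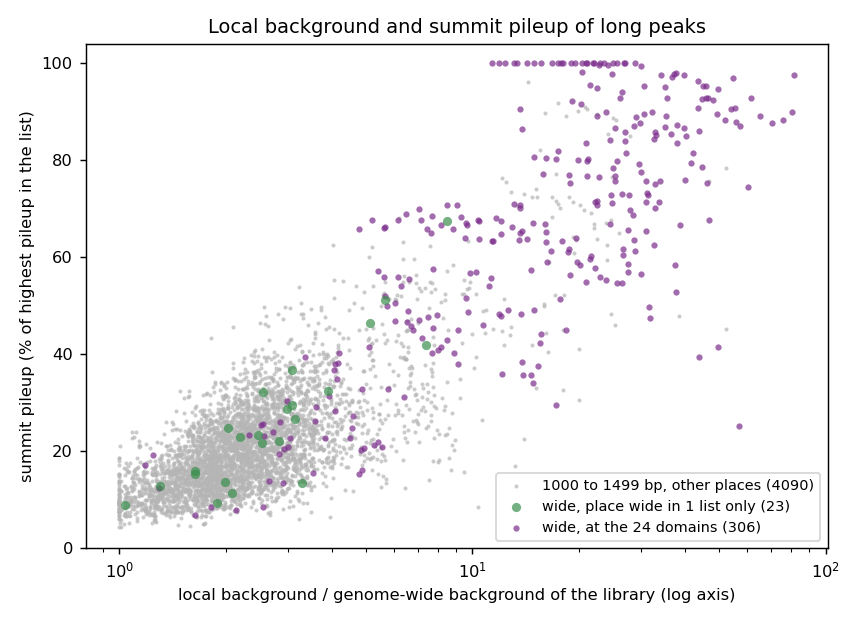
Summit pileup as a percentage of the highest pileup in its list (vertical axis) against local background divided by the genome-wide background of the library (horizontal axis, log scale), 1 point a peak. The 306 wide peaks at the 24 domains (purple) extend to the upper right, with a median ratio of 17.8, while the 23 wide peaks seen in 1 list only (green) and the 4090 peaks of 1000 bp up to the limit (grey) have medians of 2.55 and 2.21.

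A minority of the domains had a modest background. The median ratio was 1.29 at chr16a (chr16:34021391-34022970), 1.64 at chr15, 2.31 at chr20, 2.97 at chr1d and 3.17 at chr14. Of these chr1d was wide in 11 lists and the others in 2 to 4. The chr16a domain had one of the highest median fold enrichments, 8.04, and the highest was 8.53 at chr11, where the ratio was 9.14.

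The number of wide autosomal peaks in a library was higher in deeper lists. Since 306 of the 329 such peaks lie at the domains, this number is nearly the measure that selected them, and it is described without a test. It was 3 to 24 in LNCaP (median 15.5, n = 12) and 11 to 19 in RES-A (median 12, n = 12). The 3 and the 4 came from the LNCaP lists with a background under 1, and the 24 from LNCaP DHT+ENZ replicate 2 at a background of 5.70. Over the 24 libraries Pearson's r between this number and log2 background was 0.905 and Spearman's rho was 0.913. Pearson's r was 0.898 without the lists of lowest and highest background, LNCaP ENZ replicate 1 and LNCaP DHT replicate 3. LNCaP alone, with 12 libraries, gave r = 0.922 and rho = 0.890, and r = 0.812 without its 2 libraries under a background of 1. RES-A alone gave r = 0.817 and rho = 0.810, and r = 0.674 without RES-A ENZ replicate 2 and RES-A DHT+ENZ replicate 3. Each doubling of background went with 4.73 more wide peaks.

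**Figure D3:**
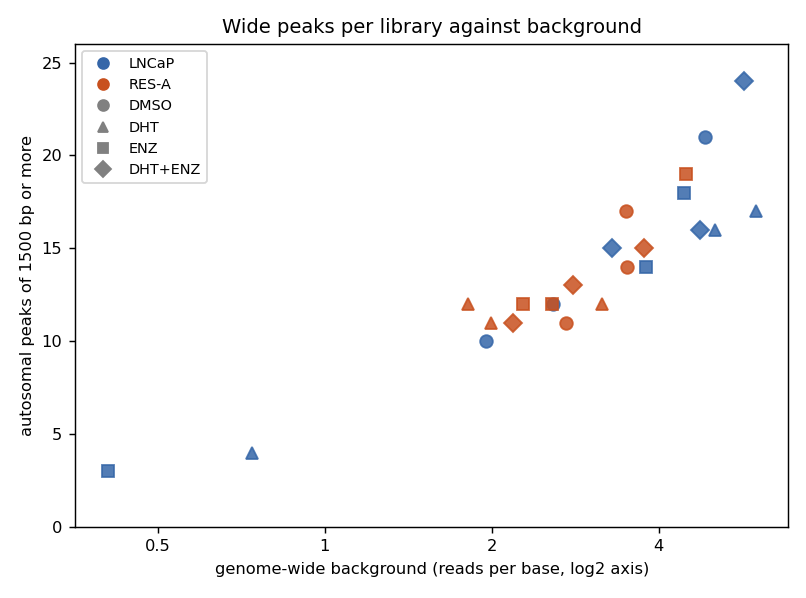
Number of autosomal peaks of 1500 bp or more in each of the 24 libraries (vertical axis) against genome-wide background (horizontal axis, log2 scale), with colour for the subline and marker for the treatment. The axis names reads per base, but the unit is overlapping fragments at a base. The 2 LNCaP libraries with a background under 1 hold 3 and 4 wide peaks, and LNCaP DHT+ENZ replicate 2 holds 24.

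The same held domain by domain. A straight line of the longest peak on log2 background, with subline as a second term, sloped upward at all 24 domains. The slope was 9.13 bp per doubling at chr5b to 757 bp at chr10, with a median of 337 bp. These fits include the 2 lists with a background under 1, and no slope without them is given. At chr5a, with a slope of 346 bp, those 2 lists had 306 and 851 bp and the other 22 lay between 1788 and 1895 bp. Of the 22 domains that were not wide in some list, the median background of the wide lists was higher than that of the other lists at 20. At 6 of them every wide list was deeper than every other list. One of these was chr7, which was wide in the lists with a background of 4.48 or more and in no list with 4.45 or less. At the others, the only lists not wide were among the 2 with a background under 1. They were both of these at chr10, chr16c and chr5a, and LNCaP ENZ replicate 1 alone at chr11 and chr18. At chr5b, where the slope was smallest, and at chr5c (chr5:134262151-134264135) the median background of the wide lists was instead lower, at 3.23 against 3.30 and 3.03 against 3.23.

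**Figure D4:**
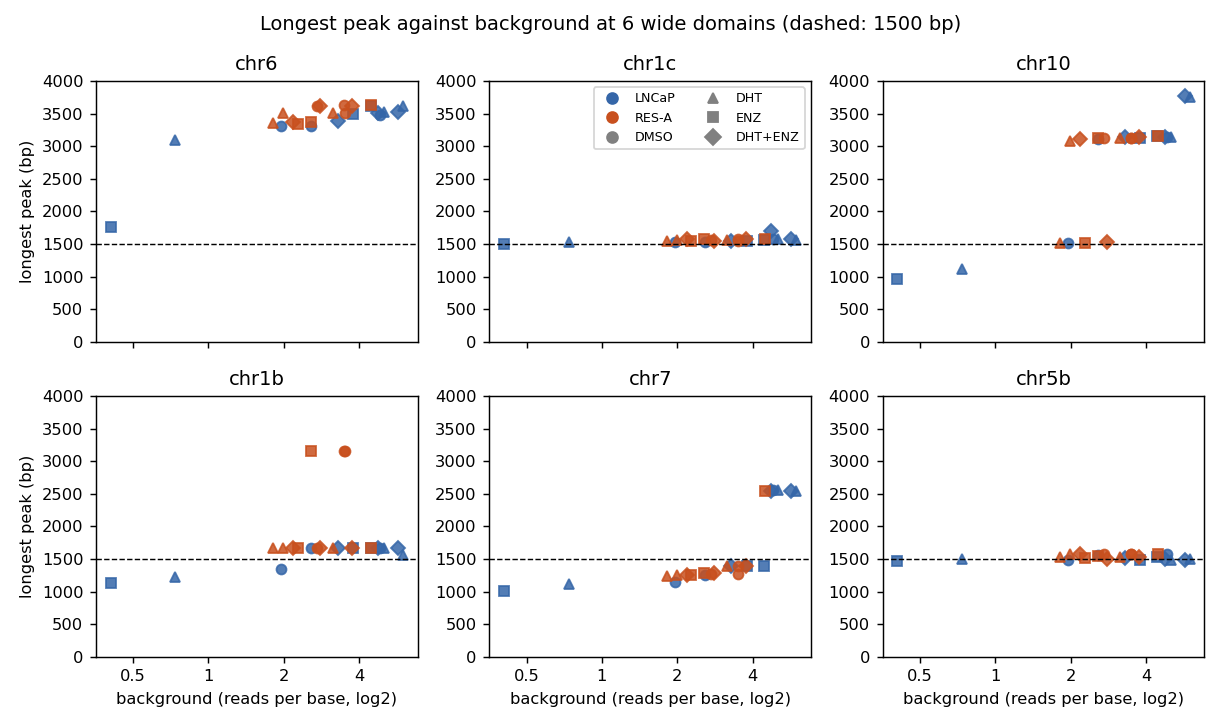
Longest peak in bp (vertical axis) against genome-wide background (horizontal axis, log2 scale) in the 24 libraries at 6 domains, with colour for the subline, marker for the treatment and a dashed line at 1500 bp. The axis names reads per base, but the unit is overlapping fragments at a base. At chr10 and chr7 the lengths form separate levels that deeper libraries reach, while chr1c and chr5b stay within 1502 to 1692 bp and 1472 to 1583 bp.

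The sublines were first set side by side by the number of wide peaks per library. LNCaP libraries held 14.2 ± 6.21 (SD, n = 12) and RES-A libraries 13.3 ± 2.56 (SD, n = 12). The RES-A range of 11 to 19 lay within the LNCaP range of 3 to 24. On the log2 scale RES-A minus LNCaP was 0.086, and with log2 background as a covariate it was 0.12. The unadjusted difference turned to -0.28 without the 2 LNCaP libraries under a background of 1, and to -0.063 and -0.11 without LNCaP DHT replicate 1 or LNCaP ENZ replicate 1 alone. The adjusted difference was 0.027 without the same 2 libraries. With all 24 libraries and the background as a covariate on the linear scale, the difference was 0.39. The sign thus depended on the libraries, and the size on the libraries and on how depth entered.

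Of the 24 domains, 20 were wide in at least 1 list of each subline. A domain was wide in more LNCaP than RES-A lists at 8 places, in more RES-A lists at 11 and in equally many at 5. Those wide in RES-A only were chr1a and chr5c. At chr1a the longest peak was 905 to 1468 bp in LNCaP (median 1002.5, n = 12) and 912 to 2338 bp in RES-A (median 1468, n = 12), with 2338 bp in RES-A ENZ replicate 2 and 1512 bp in RES-A DMSO replicate 3. At chr5c it was 961 to 1470 bp in LNCaP (median 993) and 990 to 1985 bp in RES-A (median 1228), with 1985 bp in RES-A ENZ replicate 3 and 1971 bp in RES-A DMSO replicate 3. At both places the 2 sublines overlapped, and the higher RES-A median came at a lower median background.

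The domains wide in LNCaP only were chr9 (chr9:66833011-66834646) and chr14. At chr9 the longest peak was 277 to 1636 bp in LNCaP (median 1008.5) and 526 to 1081 bp in RES-A (median 777.5), and the wide lists were LNCaP ENZ replicate 3 at 1636 bp and DHT+ENZ replicate 3 at 1625 bp. At chr14 it was 154 to 1596 bp in LNCaP (median 1160) and 257 to 1036 bp in RES-A (median 543.5), and the wide lists were LNCaP DMSO replicate 2 and DHT+ENZ replicate 2. These 4 libraries had a background of 4.45 or more, and RES-A had 1 library above that value. The median local background at chr14 was 4.05 times the genome-wide one in LNCaP and 2.32 times in RES-A, and the median summit was 28.7% and 8.15% of the highest pileup.

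With log2 background in the fit, the longest peak was longer in RES-A at 14 domains and shorter at 10, with a median difference of 5.97 bp. The largest such differences were 499 bp at chr1b and 357 bp at chr1a, which are neighbours, and -418 bp at chr16b and -411 bp at chr14. At chr1b the longest peak was 1128 to 1669 bp in LNCaP (median 1663.5) and 1662 to 3160 bp in RES-A (median 1669.5), and the 3 RES-A lists in which the gap was closed lay at 3152 to 3160 bp. At chr16b it was 356 to 3048 bp in LNCaP (median 2036.5) and 633 to 2131 bp in RES-A (median 1316). The sublines overlapped at both. By the total length covered by peaks within the domain, the same fit gave a higher value in RES-A at 22 domains and a lower one at 2. The median of these differences was 67.1 bp. These lists chose the domains, so neither measure was tested here.

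A test of width between sublines needs libraries that did not choose the places. For this, the 8 replicate 1 libraries chose the regions, and the covered length of each region was compared in the 16 libraries of replicates 2 and 3 with limma over all 197926 regions, on the scale of log2(covered bp + 100) with log2 background as a covariate. Among these were 12 regions with a peak of 1500 bp or more in at least 2 choosing lists, and each of the 12 overlapped one of the domains above. Covered length was counted only inside the region as drawn from replicate 1, so a peak that reached past its edges added nothing there. The chr1b region was 1671 bp long, so the RES-A peaks of 3152 to 3160 bp did not show as longer. The chr10 region, of 3147 bp, was covered over 3016 to 3146 bp in LNCaP, which left little room for an increase. Most of the 12 regions were like this. The LNCaP median was 3513.5 of 3622 bp at chr6, 1823.5 of 1876 bp at chr5a and 1560.5 of 1576 bp at chr1c. The chr15 region had more room, at 1392.5 of 1831 bp. The count of wide regions called is therefore not directly comparable with the share over all regions. RES-A minus LNCaP passed an adjusted p of 0.05 at 37.4% of all regions (27.5% higher in RES-A) and at 2 of the 12 wide ones, both higher in RES-A. The fitted difference was above 0 at 11 of the 12, with a median of 0.026, while the median over all regions was 0.16. Without the covariate it was above 0 at 7 of the 12, with a median of 0.0035, and the median over all regions was 0.042. Of all regions called, 73.7% were higher in RES-A, a share that was 57.4% without the covariate and 59.1% without LNCaP DMSO replicate 3. In bp of covered length the median difference was 38.3 bp over the wide regions and 36.5 bp over all regions, so the order of these medians depended on the scale.

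One of the 2 was at chr11 (region chr11:10529728-10531770). Its covered length was 1834 to 2018 bp in LNCaP (median 1919, n = 8) and 1945 to 2043 bp in RES-A (median 2021, n = 8). The sublines overlapped, since LNCaP DMSO replicate 2 with 2018 bp and LNCaP ENZ replicate 3 with 2001 bp exceeded RES-A DHT replicate 2 with 1945 bp. The log2 difference was 0.093 ± 0.032 (SE, limma adjusted p = 0.0454). It was above 0 without any one of the 16 libraries, at 0.064 to 0.11, but passed the threshold in 1 of these 16 fits.

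The other was at chr15 (region chr15:100467004-100468834). Its covered length was 639 to 1624 bp in LNCaP (median 1392.5, n = 8) and 790 to 1807 bp in RES-A (median 1346, n = 8). The groups overlapped over most of their range, and the RES-A median was the lower one. The difference of 0.43 ± 0.13 (SE, limma adjusted p = 0.0304) appeared with background in the model and was -0.010 (adjusted p = 0.977) without it. Leaving out LNCaP DHT+ENZ replicate 3, LNCaP DMSO replicate 3, LNCaP ENZ replicate 2, RES-A DHT replicate 3, RES-A DMSO replicate 3 or RES-A ENZ replicate 2 took the adjusted p over the threshold, to 0.213 at most without LNCaP DMSO replicate 3.

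At the other 10 regions the differences lay between -0.0013 and 0.053 with adjusted p of 0.16 or more. At chr6 the covered length was 3313 to 3618 bp in LNCaP (median 3513.5, n = 8) and 3355 to 3621 bp in RES-A (median 3562.5, n = 8). At chr18 it was 1625 to 1634 bp and 1624 to 1647 bp. At chr5b, where 5 LNCaP lists and 11 RES-A lists had counted as wide, it was 1486 to 1570 bp (median 1494) and 1495 to 1578 bp (median 1541), with a difference of 0.053 ± 0.028 (SE, limma adjusted p = 0.16).

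**Figure D5:**
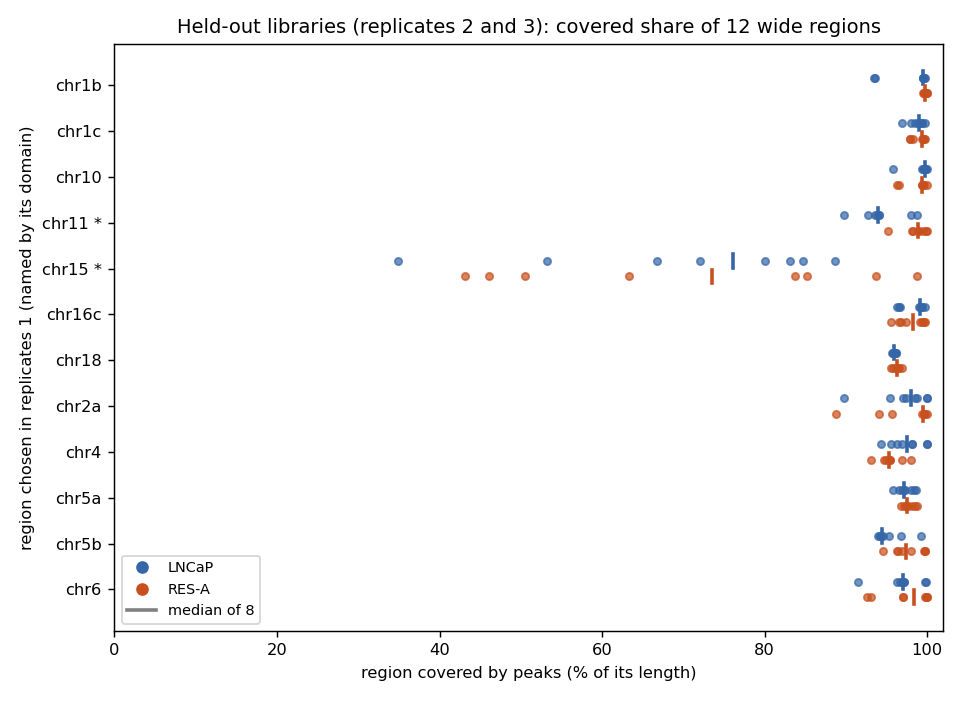
Share of each of the 12 wide regions covered by peaks (horizontal axis, percent of region length) in the 8 LNCaP and 8 RES-A libraries of replicates 2 and 3, with 1 point a library and a bar at the median of 8. An asterisk marks the 2 regions that passed an adjusted p of 0.05 between sublines, chr11 with medians of 1919 and 2021 bp and chr15 with medians of 1392.5 and 1346 bp.

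Treatments were compared next, which asks whether androgen or its blockade opens or narrows these domains. RES-A had been held in 10 µM ENZ before treatment and LNCaP had not. In RES-A, ENZ minus DMSO thus set ENZ kept against ENZ no longer added. In LNCaP it set ENZ newly added against none. The 3 LNCaP libraries given DMSO held 10, 12 and 21 wide peaks, those given DHT 4, 16 and 17, those given ENZ 3, 14 and 18, and those given DHT+ENZ 15, 16 and 24. In RES-A the libraries given DMSO held 11, 14 and 17, those given DHT 11, 12 and 12, those given ENZ 12, 12 and 19, and those given DHT+ENZ 11, 13 and 15. Every pair of groups overlapped in both sublines. Of the variance of the log2 number of wide peaks, treatment took up 18.4% in LNCaP and 17.7% in RES-A. Of the variance left after log2 background it took up 66.4% in LNCaP and 6.04% in RES-A. The LNCaP share was 8.23% for peaks of 1000 bp or more and 34.4% when wide peaks were taken as a percentage of autosomal peaks. With so few libraries a treatment, labels without any effect also take up a share, so these values alone do not show an effect of treatment.

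The combinations of domain and library that were wide made up 52.8% of 72 with DMSO, 44.4% with DHT, 45.8% with ENZ and 63.9% with DHT+ENZ in LNCaP. In RES-A the shares were 58.3%, 47.2%, 55.6% and 51.4%. The groups also differed in depth. In RES-A the mean longest peak was shorter with DHT than with DMSO at 21 of the 24 domains, by a median of 162 bp, and the median background was 1.99 with DHT and 3.49 with DMSO. With log2 background in the fit it was shorter at 11 and longer at 13, with a median difference of 10.5 bp. In LNCaP the mean longest peak with DHT+ENZ exceeded that with DHT at 21 domains, by a median of 268 bp, and with background in the fit at 15, by a median of 53.2 bp. The means with DHT include LNCaP DHT replicate 1, with a background of 0.739. From group medians in place of means, DHT+ENZ was longer at 17 domains and shorter at 7, by a median of 15 bp.

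The domains that were wide in every list are given by treatment. At chr6 the longest peak measured 3513, 3622 and 3626 bp in the RES-A libraries given DMSO and 3355, 3509 and 3512 bp in those given DHT. It measured 3335, 3372 and 3627 bp after ENZ and 3366, 3612 and 3618 bp after DHT+ENZ. The RES-A libraries given DMSO lay above those given DHT, by 1 bp between the nearest, and every other pair of RES-A groups overlapped. The LNCaP libraries gave 3309, 3313 and 3486 bp after DMSO and 3099, 3520 and 3621 bp after DHT. They gave 1756, 3499 and 3610 bp after ENZ and 3386, 3510 and 3519 bp after DHT+ENZ. Every pair of LNCaP groups overlapped.

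At chr1c the longest peak measured 1542, 1562 and 1571 bp in the RES-A libraries given DMSO and 1542, 1565 and 1567 bp in those given DHT. It measured 1552, 1571 and 1574 bp after ENZ and 1549, 1571 and 1574 bp after DHT+ENZ. The LNCaP libraries gave 1527, 1533 and 1572 bp after DMSO, 1523, 1555 and 1571 bp after DHT, 1502, 1545 and 1566 bp after ENZ, and 1550, 1571 and 1692 bp after DHT+ENZ. Every pair of groups within a subline overlapped at chr1c.

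In the libraries that did not choose the regions, no treatment contrast called any of the 12 wide regions. Covered length could not register widening past the edges of a region, and most of the 12 regions were already covered almost fully. The absence of calls therefore does not show that their width was unchanged. For DHT minus DMSO limma called 0.425% of all 197926 regions in LNCaP and 2.61% in RES-A. For ENZ minus DMSO it called 0.117% and 0.17%, and for DHT+ENZ minus DHT 0.559% and 1.23%. Of the wide regions 0 of 12 passed an adjusted p of 0.05 in each of the 6 contrasts. At an unadjusted p under 0.05 there was 1, chr15 with ENZ minus DMSO in RES-A at -0.53 on the log2 scale, and none in the other 5 contrasts. That was the largest of the treatment differences in either direction, and their standard errors were 0.043 to 0.25. The difference of each contrast between RES-A and LNCaP was also tested, although the ENZ contrast was unlike in the sublines, since only RES-A had been held in ENZ before. It was called at 0.121%, 0.0177% and 0.15% of all regions for DHT, ENZ and DHT+ENZ and at 0 of 12 wide regions, with none at an unadjusted p under 0.05.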

How the data were processed

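FAIRE-seq peak lists of 24 libraries (LNCaP and RES-A, 4 treatments, 3 replicates) were analysed, with groups and replicate numbers from the sample titles and characteristics. Per the labels and the study's methods, each library was processed on its own by the authors: BWA for alignment to hg19, Picard for duplicate marking and MACS2 for peak calling, in versions 0.7.8-r455, 1.118 and 2.1.0 by the submitters' processing notes. The options of the peak caller and any control library are not given in the sources used here. The deposited lists give each peak's length in bp, its pileup (a signal in fragments, not scaled between libraries), its fold enrichment (a ratio to the expected local pileup) and the −log10 of its p-value and q-value, as the authors' peak caller wrote them. Read totals were not used here, and depth was taken as the lowest expected pileup of each list, (pileup + 1) / fold enrichment - 1, shared by 21.9% to 32.3% of the peaks of a list.

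The wide domains, and the lists and comparisons above, were chosen with earlier results of these data known. Wide peaks were those of 1500 bp or more on autosomes, merged at 1 bp overlap and kept in 2 lists or more. Named domains were those wide in the most lists, the longest, those wide in 1 subline only, and held-out regions past the threshold. Numbers of wide peaks per library, nearly the measure that selected the domains, were described by linear fits on the log2 scale, with log2 background as a covariate where stated, and carry no test. Covered length was tested with limma 3.58.1 (R 4.3.3, lmFit and eBayes, Benjamini-Hochberg) on log2(covered bp + 100), in regions with a peak in at least 4 of the 16 tested libraries, with log2 background as a covariate. On simulated data for RES-A minus LNCaP, 70.5% of 200 regions of below-median spread that were shifted by 1 on the log2 scale were recovered among 197926, with 6 false calls. Scripts used Python 3.11.15 with numpy 2.4.6, pandas 2.3.3, scipy 1.17.1 and matplotlib 3.10.9. Alternatives changed the width limit, the merging, the peaks used, the scale, the depth term, the filter, the choosing replicate and the libraries. Gene annotation, genome sequence and cell markers were not used here, since the reference at hand is of another build.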

Additional observations from a re-analysis of the deposited data

Results flagged for a closer look

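Wide peaks also appeared on sequences other than the autosomes, which no comparison above used. The mitochondrial genome held 48 peaks of 1500 bp or more, 2 in each of the 24 lists, with lengths of 3103 to 3538 bp, a median fold enrichment of 1.47 and a median pileup of 360. The unplaced sequence GL000226.1 held 29 in 20 lists (10 of LNCaP and 10 of RES-A), at 1896 to 2196 bp. GL000214.1 held 11 in 11 lists (5 of LNCaP and 6 of RES-A), at 1505 to 1606 bp. GL000220.1 held 6 in 6 lists (4 of LNCaP and 2 of RES-A), at 1620 to 1866 bp. Chromosome X held 6 in 4 LNCaP lists and none in RES-A, at 1521 to 1603 bp, and this difference between the sublines was not tested.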

How the results depend on the processing

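The number of domains, 24, became 750 with a limit of 1000 bp, 11 with 2000 bp and 12 when 12 lists were needed, and stayed between 21 and 24 without any one library. RES-A minus LNCaP in wide peaks per library was -0.13 on the log2 scale with a limit of 1000 bp (-0.074 with background adjusted). As a share of autosomal peaks it was -0.00027 percentage points (-0.00022 adjusted). With both LNCaP libraries of background under 1 left out it was -0.28 on the log2 scale (0.027 adjusted). It ran from -0.11 to 0.16 without any one library. Adjusted for background it was 0.39 on the linear scale of background. Treatment within LNCaP took up 66.4% of the variance left after log2 background, and 54.4% to 87.0% without any one library. It took up 51.0% with the 50000 top-ranked peaks, 34.4% as a share of autosomal peaks, 18.4% with no covariate and 8.23% with a limit of 1000 bp. Labels without any effect would also take up a share. A limit of 2000 bp gave no value except for treatment within RES-A, since LNCaP ENZ replicate 1 held 0 such peaks. The count of wide held-out regions called between sublines, 2 of 12, was 4 of 18 when replicate 2 chose the regions, 5 of 19 when replicate 3 chose, 4 with log2(covered bp + 10), 1 on the linear scale or with a peak needed in 8 libraries, and 0 without the depth covariate or with the longest peak as the measure. When replicate 2 or replicate 3 chose, both lists with a background under 1 were among the tested libraries. With replicate 1 choosing and any one library left out, the count was 0 to 2. Over all regions the count of 73969 was 42511 without LNCaP DMSO replicate 3 and up to 75022 without LNCaP DHT replicate 2. The chr15 region turned to -0.010 without the depth covariate. The cause was not tested. No treatment contrast or difference of contrasts called a wide region under any of the settings run. With the replicate number as a replicate block, the wide regions called between sublines were 1 of 12, and the library values were 0.086 and 0.12 for RES-A minus LNCaP, unadjusted and adjusted, and 70.4% and 8.06% for treatment in LNCaP and RES-A. The labels do not say that a number marks a shared batch. Over 28 pairs of groups the correlation of same-numbered deviations ran from -0.45 to 0.84 (median 0.264) and was over 0.1 in 20. Only 9 of 24 libraries correlated best with their own number. These values do not settle whether a number marks a shared factor. The libraries were not treated as pairs in the main fits, and the values with a replicate block are those just given. Depth limits comparisons of width. The longest peak rose with background at all 24 domains, in fits that included the 2 lists with a background under 1.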
